A study of Homo sapiens with 12 samples.

Results

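The comparison described here set MDA-MB-231 cells given H2O2 together with an antibody called anti-Hsp60N against MDA-MB-231 cells given IgG alone, a control immunoglobulin. It used 4 of the 12 RNA-seq libraries of the series, 2 in each group. Expression was in TPM, transcript abundance scaled by length and by the library total. Genes reaching 1 TPM in 2 or more of all 12 libraries were taken, and genes whose names begin with SNORA, SNORD, SCARNA or MIR were left out of every count, which left 13895 of the 23686 genes in the table. MDA-MB-231 is an established breast cancer cell line and HCT116 an established colon cancer line. Each line had an IgG group, an IgG+H2O2 group and an anti-Hsp60N+H2O2 group, each with 2 replicates. H2O2 was given at 100 µM for 8 h at the same dose in both H2O2 groups, and the medium of both lines held 10% fetal bovine serum. No group received the antibody without H2O2 among the libraries used here, so between the antibody group and the IgG group the H2O2 and the antibody differ together and their shares cannot be told apart within that comparison. The IgG+H2O2 group of the same line was therefore set beside it, and the antibody group was tested against that group directly. No label says whether the replicates came from separate cultures, so p-values measure a spread between libraries that may be technical. In the main fit that spread was estimated within groups over all 12 libraries of both lines.

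As background, H2O2 is a diffusible oxidant that reacts with cysteine thiols and, with iron, damages DNA. Cells answer it through the transcription factor NRF2, which drives antioxidant and heme-degrading enzymes, through HSF1, which drives cytosolic chaperones, and through checkpoints that hold cells before mitosis. Hsp60, encoded by HSPD1, is the chaperonin of the mitochondrial matrix and folds imported proteins together with its partner Hsp10, encoded by HSPE1. The labels do not say which part of Hsp60 the N in the antibody's name refers to.

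The 6 MDA-MB-231 libraries held between 12411 and 12499 genes at 1 TPM or more, and the 10 most abundant genes took 6.96% to 7.49% of the TPM of each. On log2(TPM + 1), Pearson's r across genes was 0.997 between the 2 libraries of each of the 3 groups and 0.995 to 0.996 between the antibody and the IgG libraries. TPM sums to the same total in every library, so sequencing depth is unknown. Some markers matched the label of the line. VIM, the intermediate filament of mesenchymal cells, had 2518 and 2551 TPM with IgG. The estrogen receptor gene ESR1 was at most at 0.03 TPM and CDH1, the epithelial cadherin, was between 0.45 and 0.65 TPM. Other members of the same lists went the other way. TWIST1 and TWIST2 of mesenchymal cells were listed at 0 in all 6 libraries, and the epithelial markers summed to 2196 and 2224 TPM with IgG. Of the genes of other cell types, PTPRC and CD3D of leukocytes were at most at 0.04 and 0.14 TPM and DCN of fibroblasts was listed at 0 in all 6 libraries. The whole list of immune markers summed to 725 and 705 TPM with IgG, so some of its members were expressed. The fibroblast and endothelial list summed to 15.65 and 17.74 TPM with IgG.

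Against IgG, 473 genes (3.4% of those tested) passed an adjusted p of 0.05 in limma, called changed from here on. Of these, 210 were higher (1.51%) and 263 were lower (1.89%) in the antibody group. The changes were small. At least a 2-fold difference on the log2(TPM + 1) scale, which understates the change of low genes, was reached by 7 higher genes (0.0504%) and 8 lower genes (0.0576%). In all 473 changed genes the antibody libraries did not overlap with the IgG libraries, which was so in 46.6% of all genes tested. A lack of overlap in a changed gene named below therefore adds nothing to its call. The median log2 fold change over all 13895 genes was 0.0026. Among changed genes with a mean of at least 5 TPM in 1 of the groups, the 6 largest falls were those of KIF20A, PIF1, TMEM71, CCNB1, AURKA and PLK1. The 6 largest rises were those of EEF1E1-MUTED, HMOX1, HSPA1B, HSPA1A, TNFRSF6B and GDF15. The count of changed genes was 144 without IgG replicate 2, 162 without antibody replicate 2 and 300 without IgG replicate 1, and 99 (36 higher, 63 lower) when the spread was estimated from the MDA-MB-231 libraries alone. RNA came from whole cultures, so fewer cells of a kind and less RNA per cell cannot be told apart.

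**Figure D1:**
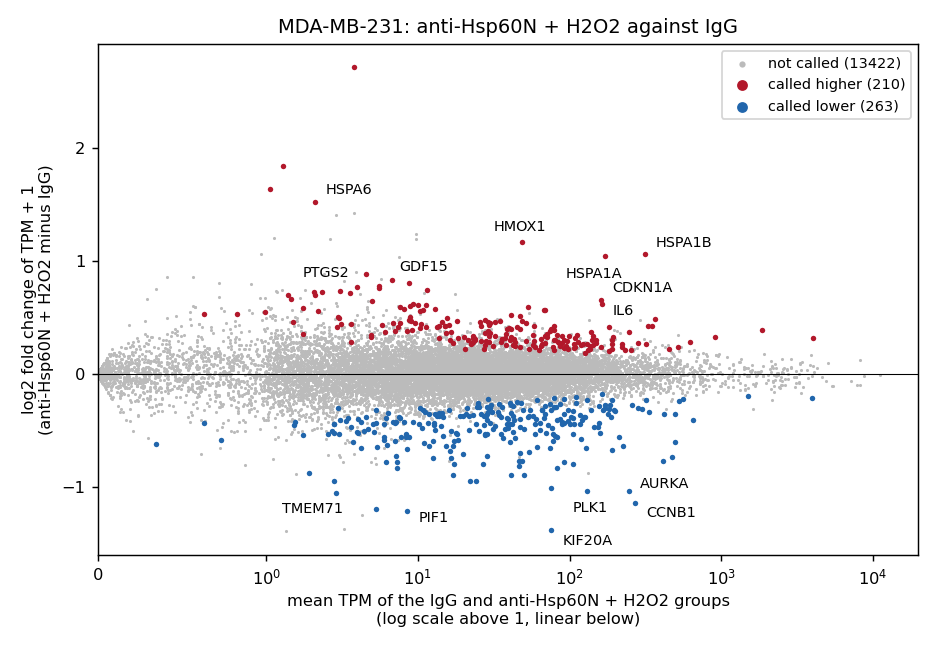
Mean TPM of the IgG and antibody groups (x axis, logarithmic above 1 and linear below) against the log2 fold change of TPM + 1, antibody plus H2O2 minus IgG (y axis), for 13895 genes of MDA-MB-231, each a point. The 210 genes called higher (red) and 263 called lower (blue) are set against 13422 grey genes not called, and HMOX1, at 1.17, and KIF20A, at -1.38, are among those labelled.

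Most genes of the mitotic lists fell. These and the other gene lists were chosen with earlier results of these data known, so their counts and medians are a description. Of 30 genes for mitotic entry and exit, 24 fell (80%, against 3.4% of all genes changed) and none rose. All 30 had a negative log2 fold change, with a median of -0.56 against 0.0026 over all genes. Of 13 mitotic kinesins, motor proteins that move chromosomes and spindle microtubules, 12 fell, with a median of -0.48. All members of both lists passed the filter on low values. Genes of both kinds are known for expression late in the cell cycle, in G2 and M phase.

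Promoters of some of these genes are shown here as chosen examples, because many genes of the list carry the same short elements. Cell cycle genes expressed in G2 and M are known to be repressed through the CHR, whose letters are TTTGAA, and activated by the factor NF-Y through the CCAAT box. Each sequence gives the 100 bases before the RefSeq start site on GRCh38.p14, 5′ to 3′ on the strand of the gene, with both elements in capitals on either strand (TTTGAA or TTCAAA for the CHR, CCAAT or ATTGG for the CCAAT box). PLK1 lies at chr16:23678789-23678888 and CCNB2 at chr15:59105046-59105145, CDCA8 at chr1:37692416-37692515, HMMR at chr5:163460532-163460631 and CCNB1 at chr5:69167050-69167149, all on the plus strand, and PRC1 at chr15:90994536-90994635 on the minus strand.
PLK1: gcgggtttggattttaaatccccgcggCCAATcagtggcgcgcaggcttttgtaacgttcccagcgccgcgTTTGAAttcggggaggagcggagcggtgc
CCNB2: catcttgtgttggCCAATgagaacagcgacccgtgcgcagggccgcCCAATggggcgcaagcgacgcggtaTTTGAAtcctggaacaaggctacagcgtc
CDCA8: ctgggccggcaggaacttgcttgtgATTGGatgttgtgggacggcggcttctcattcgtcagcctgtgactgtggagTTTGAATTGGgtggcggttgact
PRC1: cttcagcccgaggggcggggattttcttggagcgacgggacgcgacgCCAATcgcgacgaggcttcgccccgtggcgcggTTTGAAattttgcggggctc
HMMR: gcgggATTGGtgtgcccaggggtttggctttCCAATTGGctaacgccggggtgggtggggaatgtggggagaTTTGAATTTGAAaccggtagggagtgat
CCNB1: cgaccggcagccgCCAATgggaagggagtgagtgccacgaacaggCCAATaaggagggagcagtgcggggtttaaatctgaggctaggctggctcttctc

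The CHR letters began 29 bases before the start in PLK1 and CCNB2, 23 bases before it in CDCA8 and 20 bases before it in PRC1. HMMR held 2 adjoining copies, at 28 and 22 bases. CCNB1 held no CHR letters in this window but CCAAT boxes at 87 and 55 bases. In CDCA8 the CHR and an ATTGG share a base, and in HMMR a CCAAT and an ATTGG overlap. Over the 250 bases before the start, the CHR letters were found in 13 of the 24 promoters of the mitotic entry and exit list that matched by symbol (54.2%), against 13.6% of all 27305 RefSeq promoters. A CCAAT box was found in 19 of the 24 (79.2%), against 33% of all promoters. Among the 19 changed members that matched, 12 held the CHR letters and 15 a CCAAT box. AURKB, CDK1, MAD2L1 and PTTG1, which were not called, also held a CCAAT box, so the box was not particular to the genes that fell. These shares and counts are a description of letters, and binding of any factor was not measured.

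KIF20A, a kinesin that carries the chromosomal passenger complex during division, had 110.48 and 110 TPM in the IgG libraries and 41.35 and 42.06 TPM in the antibody libraries. The groups were far apart, and the 2 libraries of each were close. It fell by 1.38 (SE 0.08) on the log2 scale, with an adjusted p of 2.23e-05 in limma, and was the lowest of the genes above 5 TPM. CCNB1, the cyclin that activates CDK1 at the entry into mitosis, had 370.23 and 372.6 TPM with IgG and 179.21 and 157.6 TPM with antibody and H2O2. Both treated libraries were low and did not overlap with the controls, and the fall was 1.14 (SE 0.07, limma adjusted p 2.72e-05). PLK1, the kinase that drives centrosome maturation and the spindle, had 172.22 and 176.31 TPM with IgG and 83.65 and 85.89 TPM with antibody and H2O2. Its groups did not overlap, and it fell by 1.03 (SE 0.05, limma adjusted p 7.17e-06).

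Other regulators of the spindle moved the same way. AURKA, a centrosomal kinase, had 330.33 and 334.5 TPM with IgG and 170.76 and 153.15 TPM in the antibody group, and fell by 1.03. BORA, the activator of Aurora A, fell by 0.89, NEK2, a kinase that separates centrosomes, by 0.89, and DLGAP5, a microtubule-binding spindle protein, by 1.01. ASPM, which acts at spindle poles, fell by 0.95 and CENPE, the kinesin of the kinetochore, by 0.94. KIF2C, a kinesin that takes microtubules apart, fell by 0.65. These 7 genes did not overlap between the groups, and limma's adjusted p was at most 0.000882. Each of them but BORA stayed called under all 22 alternatives. BORA was not called when the spread came from MDA-MB-231 alone (adjusted p 0.0837).

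The remaining changed members of the mitotic entry and exit list included CDC20 (-0.77) and UBE2C (-0.40) of the anaphase-promoting complex, BUB1 (-0.53), BUB1B (-0.69) and TTK (-0.56) of the spindle checkpoint, and CCNA2 (-0.44), CCNB2 (-0.77) and CDC25C (-0.79) of the cyclin and CDK1 system, as log2 fold changes. The 6 members that were not called were MAD2L1, CDK1, PTTG1, AURKB, FOXM1 and FBXO5, with log2 fold changes between -0.30 and -0.12. CDK1 itself, the partner of CCNB1, was at 187.22 and 188.94 TPM with IgG and at 169.53 and 144.73 TPM with antibody and H2O2 (limma adjusted p 0.0552). FOXM1, a transcription factor of late cell cycle genes, was at 112.25 and 108.39 TPM against 100.13 and 98.31 TPM (limma adjusted p 0.215). KIF15 was the kinesin that was not called, with a log2 fold change of -0.13.

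Among 20 centromere and kinetochore genes, 6 fell (30%, against 3.4% of all genes changed) and none rose. The median was -0.03, so the list as a whole did not move like the mitotic regulators. NDC80, which binds microtubules at the kinetochore, had 95.74 and 96.03 TPM with IgG and 67.15 and 63.7 TPM with antibody and H2O2, and fell by 0.55 (limma adjusted p 0.000291). CENPA, the centromeric histone, fell by 0.82 and HJURP, its chaperone, by 0.41. Their libraries did not overlap between the groups. CENPA was just past the threshold with the spread of MDA-MB-231 alone (limma adjusted p 0.0502). Replication-dependent histones, of which 19 of 25 passed the filter, had a median of -0.22 and no changed member, with log2 fold changes from -0.89 to 0.68.

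Of the DNA replication genes that changed, most rose. Of 32 genes, 13 rose and 1 fell (43.8% changed, against 3.4% of all genes), 30 had a positive log2 fold change, and the median was 0.15. The changed genes covered origin licensing (CDT1 0.45, CDC6 0.30, MCM2 0.34), the CMG helicase (CDC45 0.31, GINS2 0.25, GINS3 0.30), the sliding clamp and its loader (PCNA 0.27, RFC2 0.30), Okazaki fragment processing (FEN1 0.33), histone deposition (CHAF1A 0.42, CHAF1B 0.25), nucleotide supply (RRM2 0.38) and MCM10 (0.28), as log2 fold changes. MCM6, another subunit of the helicase, fell by 0.22. The number of members that rose was 4 without antibody replicate 2, 5 without either IgG replicate, 6 without antibody replicate 1, and 3 with the spread of MDA-MB-231 alone.

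FEN1 had 173.36 and 170.45 TPM with IgG and 216.66 and 215.34 TPM with antibody and H2O2, a rise by a ratio of 1.26 (limma adjusted p 0.00327). The groups were separate, and the libraries within each were close. RRM2 had 115.64 and 126.56 TPM against 158.99 and 155.5 TPM, and CHAF1A 48.44 and 50.86 TPM against 64.25 and 69.8 TPM. Both rose without overlap (limma adjusted p 0.00465 and 0.00371), and neither was called with the spread of MDA-MB-231 alone (0.0651 and 0.083). EXO1, an exonuclease of mismatch and break repair, was 1 of 2 changed genes among 32 for DNA repair (6.25%, against 3.4% of all genes). It had 23.01 and 23.22 TPM against 33.28 and 31.9 TPM, and it stayed called under all 22 alternatives. UNG, which removes uracil from DNA, was the other, with a log2 fold change of 0.34. UNG was not called without IgG replicate 2 (adjusted p 0.0918) or antibody replicate 2 (0.0885).

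Of 18 kept genes for G1/S cyclins and E2F factors, 16.7% changed, against 3.4% of all genes. E2F1 (0.40) and the phosphatase gene CDC25A (0.28) rose and the CDK inhibitor gene CDKN2C fell by 0.38. None of these 3 calls held without IgG replicate 2 (limma adjusted p 0.099, 0.111 and 0.111) or without antibody replicate 2 (0.0802, 0.151 and 0.153), and CDC25A and CDKN2C were also not called without IgG replicate 1 (0.0549 and 0.0787). The letters TTCCCGC of an E2F element, on either strand, were found within 250 bases before the start in 14 of the 29 matched DNA replication promoters (48.3%) and in 5.59% of all promoters. Among the 14 changed members, which all matched, 4 held them.

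HMOX1, which degrades heme and is a classical NRF2 target, had the largest rise among the 30 NRF2 targets. It had 29.27 and 30.18 TPM with IgG and 72.13 and 64.12 TPM with antibody and H2O2. The antibody libraries were both far above either control, and HMOX1 rose by 1.17 (SE 0.06) on the log2 scale, a ratio of mean TPM of 2.29 (limma adjusted p 7.17e-06). Of 30 NRF2 targets, 8 rose (26.7%, against 3.4% of all genes changed), none fell, and the median was 0.12.

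The other 7 were SLC7A11 (0.61), the cystine transporter, OSGIN1 (0.46), TXNRD1 (0.42), thioredoxin reductase, GCLC (0.32), the catalytic subunit of glutathione synthesis, FTH1 (0.32), ferritin heavy chain, SRXN1 (0.27), sulfiredoxin, and SQSTM1 (0.24), an autophagy receptor, as log2 fold changes. TXNRD1 had 283.67 and 316.9 TPM with IgG and 407.35 and 397.11 TPM with antibody and H2O2, without overlap. NQO1, the quinone reductase often used as an NRF2 marker, was at 230.39 and 232.23 TPM against 238.87 and 231.77 TPM (limma adjusted p 0.791). GCLM, the partner of GCLC, was at 49.55 and 55.82 TPM against 65.09 and 59.36 TPM (0.0874). The count of NRF2 targets that rose was 4 without IgG replicate 2, 5 without antibody replicate 2 and 2 with the spread of MDA-MB-231 alone, where TXNRD1 and SLC7A11 were not called (limma adjusted p 0.0757 and 0.0973). The call of SQSTM1 was lost without any single library of the IgG or antibody group (limma adjusted p up to 0.187).

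The letters TGACNNNGC of an antioxidant response element, on either strand, were within 250 bases before the start in 5 of 22 matched NRF2 target promoters (22.7%) and in 11% of all promoters. Of the 8 changed NRF2 targets, 5 were among the 22 matched promoters, and TXNRD1 was the 1 of these that held the letters. HMOX1 was not among the promoters found to hold them. Unmatched promoters, which may include that of HMOX1, were not searched. Antioxidant enzymes as a list held 1 changed gene of 22 (4.55%, near the 3.4% of all genes), catalase. CAT had 45.35 and 46.96 TPM with IgG and 36.15 and 35.98 TPM with antibody and H2O2, a fall by 0.35 (limma adjusted p 0.0292). The call of CAT was lost without any 1 of the 4 libraries (limma adjusted p 0.0829 to 0.159).

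Of 20 kept heat shock genes, 3 rose (15%, against 3.4% of all genes changed), all of the inducible Hsp70 class, and none fell. Their promoters are shown because each holds the palindromic letters GAANNTTC of a heat shock element, to which HSF1 binds. The sequences give the 200 bases before the RefSeq start on GRCh38.p14, on the plus strand, with GAANNTTC in capitals. HSPA1A lies at chr6:31815343-31815542, HSPA1B at chr6:31827538-31827737 and HSPA6 at chr1:161524340-161524539.
HSPA1A: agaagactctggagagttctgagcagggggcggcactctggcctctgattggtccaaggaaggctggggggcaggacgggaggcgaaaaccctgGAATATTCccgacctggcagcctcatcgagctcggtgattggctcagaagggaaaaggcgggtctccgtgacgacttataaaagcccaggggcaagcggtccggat
HSPA1B: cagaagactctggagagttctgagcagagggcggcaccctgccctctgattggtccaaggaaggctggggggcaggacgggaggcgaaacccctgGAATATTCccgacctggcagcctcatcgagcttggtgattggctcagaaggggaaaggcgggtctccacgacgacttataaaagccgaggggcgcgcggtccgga
HSPA6: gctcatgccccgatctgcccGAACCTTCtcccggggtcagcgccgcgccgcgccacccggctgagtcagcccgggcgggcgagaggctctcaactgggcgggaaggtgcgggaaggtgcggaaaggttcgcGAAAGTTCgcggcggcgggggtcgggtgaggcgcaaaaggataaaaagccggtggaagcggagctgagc

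The element began 106 bases before the start in HSPA1A, 105 bases before it in HSPA1B, and at 180 and 69 bases in HSPA6. Within 250 bases, it was found in 8 of 18 matched heat shock promoters (44.4%) and in 5.85% of all promoters. Besides the 3 genes that rose, these were CHORDC1, DNAJA1, HSPA8, HSPB1 and HSPB8, none of which was called. The letters were therefore not particular to the genes that rose. HSPA1A and HSPA1B are near-identical copies, so how the authors' counting split reads between them is uncertain.

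HSPA1B had 193.17 and 213.3 TPM with IgG and 400.76 and 451.57 TPM with antibody and H2O2, and rose by 1.06 (SE 0.07) on the log2 scale (limma adjusted p 2.94e-05). HSPA1A had 106.66 and 116.09 TPM against 215.12 and 247.4 TPM, and rose by 1.05 (limma adjusted p 8.51e-05). HSPA6, a strictly inducible Hsp70, had 0.58 and 0.61 TPM against 3.5 and 3.68 TPM, and rose by 1.52 (limma adjusted p 3.41e-05). All 3 were separate between the groups. HSPA1A and HSPA1B stayed called under all 22 alternatives, and HSPA6 under the 21 that kept it, since it is below a mean of 5 TPM. The other 17 kept members lay between -0.08 and 0.26 on the log2 scale. They included HSPA8, the constitutive Hsp70, at 2449.93 and 2587.77 TPM against 2521.34 and 2667.63 TPM (limma adjusted p 0.7), and DNAJB1, an Hsp40 co-chaperone, at 146.47 and 154.73 TPM against 169.61 and 169.33 TPM (0.109).

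HSPD1, which encodes Hsp60, had 633.48 and 666.06 TPM with IgG and 672.96 and 658.48 TPM with antibody and H2O2. The libraries overlapped, and the log2 fold change was 0.04, with a 95% interval from -0.07 to 0.14 (limma adjusted p 0.751). HSPE1 had 419.71 and 397.98 TPM against 429.36 and 473.17 TPM (0.348). None of the 19 genes for mitochondrial chaperones and proteases changed, with a median of 0.05 and values from -0.06 to 0.18. None of 17 genes of the unfolded protein response and none of 30 nuclear genes of oxidative phosphorylation changed, with medians of 0.0008 and -0.04.

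**Figure D2:**
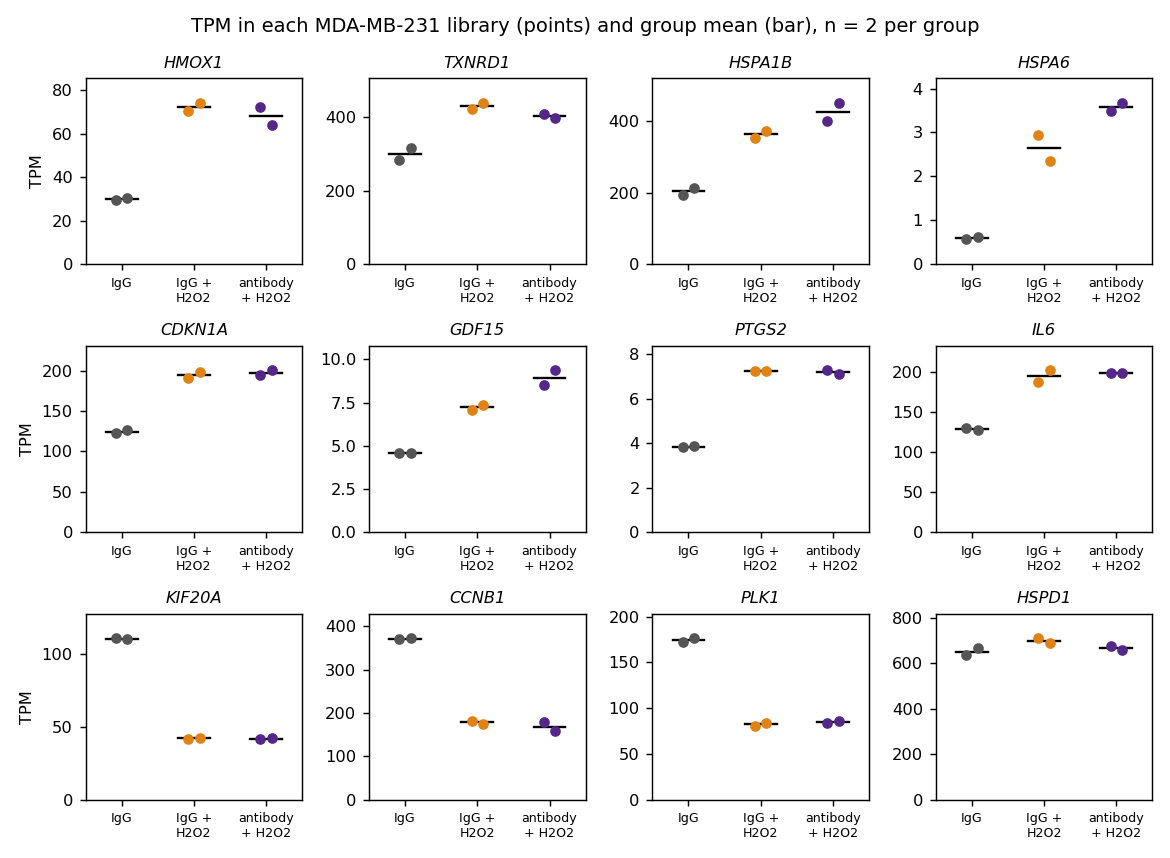
TPM (y axis, from 0) of 12 genes in each MDA-MB-231 library, with the group mean as a bar and 2 libraries a group as points, for IgG, IgG + H2O2 and antibody + H2O2. HMOX1, TXNRD1, HSPA1B, HSPA6, CDKN1A, GDF15, PTGS2 and IL6 are higher and KIF20A, CCNB1 and PLK1 lower in both H2O2 groups than with IgG, while HSPD1 lies between 633.48 and 709.03 TPM in all 6 libraries.

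Of 23 kept genes of the ATF4 response to amino acid and other stress, 8 rose and none fell, with a median of 0.25. The share changed was 34.8%, against 3.4% of all genes. ATF4 itself had 306.4 and 304.45 TPM with IgG and 432.52 and 422.78 TPM with antibody and H2O2, and rose by 0.48 (SE 0.05, limma adjusted p 0.000702). The antibody libraries were both high and close. PPP1R15A, which returns eIF2 to its active state, rose by 0.41, CHAC1, which degrades glutathione, by 0.47, MTHFD2 of mitochondrial folate metabolism by 0.40, and TRIB3 by 0.27. CEBPG (0.25), SLC3A2 (0.26) and SLC7A11 completed the 8. The count was 3 without antibody replicate 2 or without either IgG replicate, 5 without antibody replicate 1, and 2 with the spread of MDA-MB-231 alone. PPP1R15A was not called without IgG replicate 1 (limma adjusted p 0.0706) or antibody replicate 2 (0.0964), and TRIB3 was not called without any 1 of the 4 libraries (up to 0.206).

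Of 27 kept p53 targets, 2 rose and 2 fell (14.8% changed, against 3.4% of all genes), with a median of 0.05. CDKN1A, which encodes the CDK inhibitor p21, had 122.37 and 126.99 TPM with IgG and 194.24 and 200.47 TPM with antibody and H2O2. It rose by 0.66 (SE 0.04, limma adjusted p 2.72e-05). GDF15, a secreted stress cytokine, had 4.57 and 4.58 TPM against 8.51 and 9.36 TPM, and rose by 0.83 (SE 0.11, limma adjusted p 0.0019). Both were separate between the groups and stayed called under all 22 alternatives. CCNG1 and FAS fell by 0.40 and 0.38 (limma adjusted p 0.0211 and 0.0492), and CCNG1 was not called without IgG replicate 2 (0.156) or antibody replicate 2 (0.167). MDM2, the ubiquitin ligase of p53, was at 16.39 and 16.67 TPM against 18.01 and 18.35 TPM (limma adjusted p 0.309).

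Of 28 kept NF-kappaB targets, 5 rose (17.9%, against 3.4% of all genes changed) and none fell, with a median of 0.18. PTGS2, the inducible cyclooxygenase, had 3.81 and 3.89 TPM with IgG and 7.28 and 7.14 TPM with antibody and H2O2 (0.76, limma adjusted p 0.00107). IL6, an inflammatory cytokine, had 130.63 and 127.25 TPM against 198.7 and 199.08 TPM (0.62, limma adjusted p 0.00115). Both groups were tight and apart for PTGS2 and IL6, and IL6 was not called with a pseudocount of 0.25 (limma adjusted p 0.0718). The subunit genes RELB (0.46) and NFKB2 (0.29) and the cytokine gene IL1B (0.36) also rose, and RELB was not called without IgG replicate 1, IgG replicate 2 or antibody replicate 2 (limma adjusted p 0.0706, 0.0918 and 0.119). NFKBIA, the feedback inhibitor, had a log2 fold change of -0.10 (limma adjusted p 0.37). Of 27 immediate early genes, JUNB (0.52), IER3 (0.39) and DUSP5 (0.27) rose (11.1%, against 3.4% of all genes changed). JUNB and IER3 were not called without either IgG replicate or without antibody replicate 2 (limma adjusted p up to 0.247), and JUNB also not without either IgG+H2O2 replicate (0.0503 and 0.0501). DUSP5 was not called without antibody replicate 1 (limma adjusted p 0.0598) or IgG replicate 2 (0.087).

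A few genes of matrix and mesenchymal identity fell. They were 7.14% of the TGF-beta and matrix list and 20% of the mesenchymal markers, against 3.4% of all genes changed. FN1 is on both lists. FN1, fibronectin, had 109.4 and 130.64 TPM with IgG and 93.55 and 89.28 TPM with antibody and H2O2, and fell by 0.38 (limma adjusted p 0.0283). CDH11, a mesenchymal cadherin, fell by 0.44 and CAV1, the coat protein of caveolae, by 0.35, which made 3 changed of 15 mesenchymal markers, with a median of -0.12. THBS1, a matrix protein that activates TGF-beta, fell by 0.36 and was with FN1 one of 2 changed among 28 genes of TGF-beta and matrix (median -0.13). The summed TPM of the mesenchymal markers was 6897 and 6915 with IgG, 6219 and 5924 in the antibody group and 6288 and 6123 in the IgG+H2O2 group. Epithelial markers summed to 2196 and 2224 TPM with IgG and 2046 and 2093 TPM in the antibody group, and none of 19 changed. None of the 4 falls named here held without IgG replicate 2 (limma adjusted p 0.0799 to 0.156), nor without antibody replicate 2 (0.0726 to 0.188). Without antibody replicate 1, CAV1 alone of the 4 was called (0.0745 to 0.109 for the other 3).

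Single genes changed in several other lists. The share changed was 13% of the autophagy list, 6.67% of the interferon list and 5.26% of YAP/TEAD targets, against 3.4% of all genes. It was 12.5% of 8 metallothionein and zinc genes and 6.67% of 15 long non-coding RNAs, 1 gene in each. The interferon, YAP/TEAD and long non-coding shares are near that of all genes and are no result about those lists. GABARAPL1, a gene for autophagosome formation, had 25.51 and 24.34 TPM with IgG and 33.87 and 34.13 TPM with antibody and H2O2 (limma adjusted p 0.000882), and stayed called under all 22 alternatives. It rose with ULK1 (0.51) and SQSTM1 among 23 autophagy genes. IFIT1 and IFIT3, induced by interferon, fell by 0.44 and 0.30 and were the 2 changed of 30. NT5E, an ecto-nucleotidase, fell by 0.38 and was the changed gene of 19 YAP/TEAD targets. The metallothionein gene MT1E rose by 0.28, and the long non-coding gene EPB41L4A-AS1 rose by 0.43, from 21.3 and 22.77 to 30.15 and 29.72 TPM. EPB41L4A-AS1 is named as antisense, and no source used here says whether counting used the strand. Its call was lost with the spread of MDA-MB-231 alone (limma adjusted p 0.0693). The calls of ULK1, IFIT1, IFIT3, NT5E and MT1E were all lost without IgG replicate 2 (limma adjusted p 0.0912 to 0.159). They were also lost without antibody replicate 2 for all but MT1E, without antibody replicate 1 for all but ULK1, and without IgG replicate 1 for ULK1 and MT1E (limma adjusted p up to 0.22).

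In 13 of the 33 lists no member changed. They included apoptosis regulators (27 genes), hypoxia and glycolysis (28), cholesterol synthesis (23), ribosomal proteins (35) and ribosome biogenesis (24). Over all lists, 697 genes passed the filter, of which 49 rose and 54 fell, and some genes stand on more than one list. Cholesterol synthesis had the lowest median of these 5, at -0.11.

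**Figure D3:**
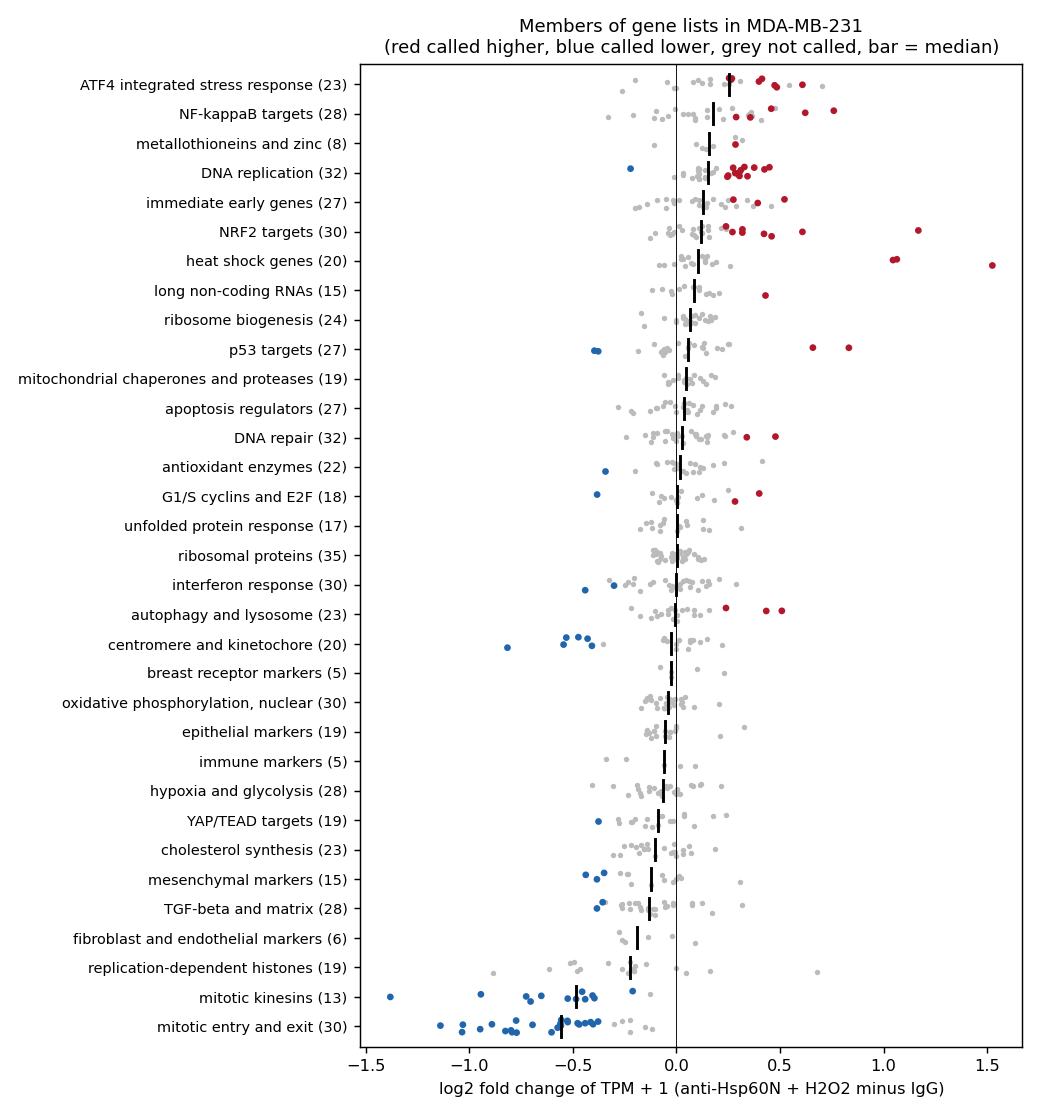
Log2 fold change of TPM + 1, antibody plus H2O2 minus IgG in MDA-MB-231 (x axis), of every kept member of 33 gene lists (y axis, with the number of members), each member a point and the list median a bar, red where called higher and blue where called lower. Mitotic kinesins and mitotic entry and exit genes lie left of 0 with medians of -0.48 and -0.56, and the ATF4 list has the highest median, 0.25.

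Several changed genes above 5 TPM are on none of these lists, which does not say that they are unrelated to them. PIF1, a DNA helicase, had 11.97 and 12.66 TPM with IgG and 4.81 and 4.69 TPM with antibody and H2O2, and fell by 1.21 (limma adjusted p 2.72e-05). TMEM71, a membrane protein gene, fell from 7.24 and 8.15 to 3.1 and 2.52 TPM (-1.19, limma adjusted p 0.000688), and DEPDC1 fell by 0.89. Neither TMEM71 nor DEPDC1 was called with the spread of MDA-MB-231 alone (limma adjusted p 0.0657 and 0.0506). TNFRSF6B, a soluble decoy receptor for FAS ligand, rose from 2.98 and 2.78 to 6.22 and 6.09 TPM (0.88, limma adjusted p 0.00547). RIBC2 (0.77), HYAL3 (0.78) of the hyaluronidase family, PINLYP (0.81) and GLI4 (0.75), a zinc finger gene, rose without overlap between the groups, which the naming rule required. TNFRSF6B, RIBC2, HYAL3 and GLI4 were not called without IgG replicate 2 (limma adjusted p 0.0702, 0.0732, 0.0991 and 0.0657). HYAL3 was also not called without either antibody replicate (0.0515 and 0.0696 in limma), and GLI4 not without IgG replicate 1 (0.127) or antibody replicate 2 (0.186). PINLYP was not called without IgG replicate 1 (limma adjusted p 0.0859) or without either antibody replicate (0.0626 and 0.0964).

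The largest rise on the log2 scale came from a readthrough gene at low level. EEF1E1-MUTED had 0 and 0.47 TPM with IgG, 9.9 and 4.8 TPM with antibody and H2O2, and 0.58 and 7.79 TPM with IgG and H2O2 (limma adjusted p 0.0461). Its H2O2 libraries were far apart, it shares exons with its neighbours so that the split of reads is uncertain, and its call was lost without any 1 of the 4 libraries (limma adjusted p 0.117 to 0.178). NEDD8-MDP1, another readthrough gene, was listed at 0 in both IgG libraries and had 2.53 and 2.61 TPM with antibody and H2O2. LOC643201 fell from 4.03 and 4.4 to 1.53 and 1.49 TPM (limma adjusted p 0.000123). NEDD8-MDP1 and LOC643201 were chosen after their values were seen. NEDD8-MDP1 was not called without IgG replicate 2 (limma adjusted p 0.0751), IgG replicate 1 (0.0507) or antibody replicate 2 (0.0629).

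How much of this was seen without the antibody was asked with the IgG+H2O2 libraries of the same line. Against the same IgG libraries, IgG+H2O2 changed 369 genes (2.66%), 181 higher (1.3%) and 188 lower (1.35%). That count was 166 and 182 without IgG replicate 1 and 2, and 120 and 115 without IgG+H2O2 replicate 1 and 2. The 2 comparisons share their controls, so their values are given only side by side. Mitotic entry and exit genes fell in 24 of 30 cases in each comparison, with medians of -0.56 with the antibody and -0.50 without it, and mitotic kinesins in 12 of 13 cases in each. DNA replication genes rose in 13 cases with the antibody and in 19 without it, with medians of 0.15 and 0.28. NRF2 targets rose in 8 cases in each comparison, ATF4 genes in 8 and 5, heat shock genes in 3 and 3 and NF-kappaB targets in 5 and 3.

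The direct test of the antibody group against IgG+H2O2 called 2 of 13895 genes (0.0144%), both higher, while 1824 genes (13.1%) had an unadjusted p under 0.05. Where no gene differs, that threshold passes a share of 0.05 on average, so 13.1% is above it. Whether the excess came from the antibody or from a difference between libraries was not tested. No gene of any of the 33 lists was called. For 12498 of the 13895 genes, and for 431 of the 473 genes changed against IgG, the 95% interval of this difference lay within 0.5 of 0 on the log2 scale. That bound is wide, since the median absolute log2 fold change of the 473 genes against IgG was 0.405. A difference as large as the typical change against IgG could lie within it, so these counts do not show that the H2O2 groups are alike. HMOX1 had 70.39 and 74.23 TPM with IgG and H2O2, overlapping the antibody libraries, a difference of -0.09 (interval -0.22 to 0.05, limma adjusted p 0.558). KIF20A, at 41.85 and 42.3 TPM with IgG and H2O2, differed by -0.01 (limma adjusted p 0.978). HSPD1 differed by -0.07, with an interval from -0.17 to 0.04 (limma adjusted p 0.558).

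For some stress genes the antibody libraries lay above both IgG+H2O2 libraries without a call. HSPA1B had 353.02 and 373.15 TPM with IgG and H2O2, a difference of 0.23 (interval 0.06 to 0.39, limma adjusted p 0.286). HSPA1A had 196.01 and 195.98 TPM, a difference of 0.23 (0.04 to 0.42, limma adjusted p 0.314). HSPA6 had 2.94 and 2.34 TPM, a difference of 0.34 (0.10 to 0.58, limma adjusted p 0.286). GDF15 had 7.05 and 7.38 TPM, a difference of 0.27 (limma adjusted p 0.321). The libraries of the H2O2 groups did not overlap in these 4 genes, as in 48.2% of all genes tested, so this separation is no result about them. The median of this difference was 0.04 over the 20 heat shock genes.

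The 2 called genes were at low level, may share reads with near-identical copies, and were named after their values were seen. GATSL1 was listed at 0 in all 4 IgG and IgG+H2O2 libraries of MDA-MB-231 and had 1.83 and 2.4 TPM with the antibody (limma adjusted p 0.000254). HERC2P4, a pseudogene, had 0.71 and 0.58 TPM with IgG and H2O2, 2.21 and 1.79 TPM with the antibody, and 1.38 and 1.56 TPM with IgG alone (limma adjusted p 0.0448). Its antibody libraries were therefore above both other groups. The number called was between 1 and 3 with any 1 library left out, 0 with the spread of MDA-MB-231 alone, and 0 among genes at a mean of 5 TPM or more.

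Among genes above 5 TPM, those of smallest p in this test did not pass it. PRAF2, a membrane protein gene, had 60.27 and 60.93 TPM with IgG, 58.57 and 62.07 TPM with IgG and H2O2, and 75.75 and 78.35 TPM with the antibody (limma adjusted p 0.171 against IgG+H2O2). CDCA7, a cell division gene, had 14.79 and 15.61, 14.69 and 15.22, and 11.61 and 11.39 TPM in the same order (limma adjusted p 0.132). For both the antibody group stood apart and the other groups overlapped. C2orf76 (-0.75), PTCD1 (-0.58), a mitochondrial RNA-binding protein gene, NUP133 (-0.32), a nuclear pore gene, and TMEM141 (-0.25) were lower and TMEM158 (0.37), MACROD1 (0.40), H1FX (0.38), a linker histone gene, and DDAH2 (0.26) were higher than with IgG+H2O2, with limma adjusted p from 0.132 to 0.199. Of these 10 genes, PRAF2 (0.34), CDCA7 (-0.37), C2orf76 (-0.52) and PTCD1 (-0.78) were called against IgG. None of these calls held with the spread of MDA-MB-231 alone (limma adjusted p 0.0554, 0.0859, 0.125 and 0.0881). PRAF2 and C2orf76 were not called against IgG without either IgG replicate or antibody replicate 2 (limma adjusted p 0.0506 to 0.21), and C2orf76 also not without antibody replicate 1 (0.0574).

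**Figure D4:**
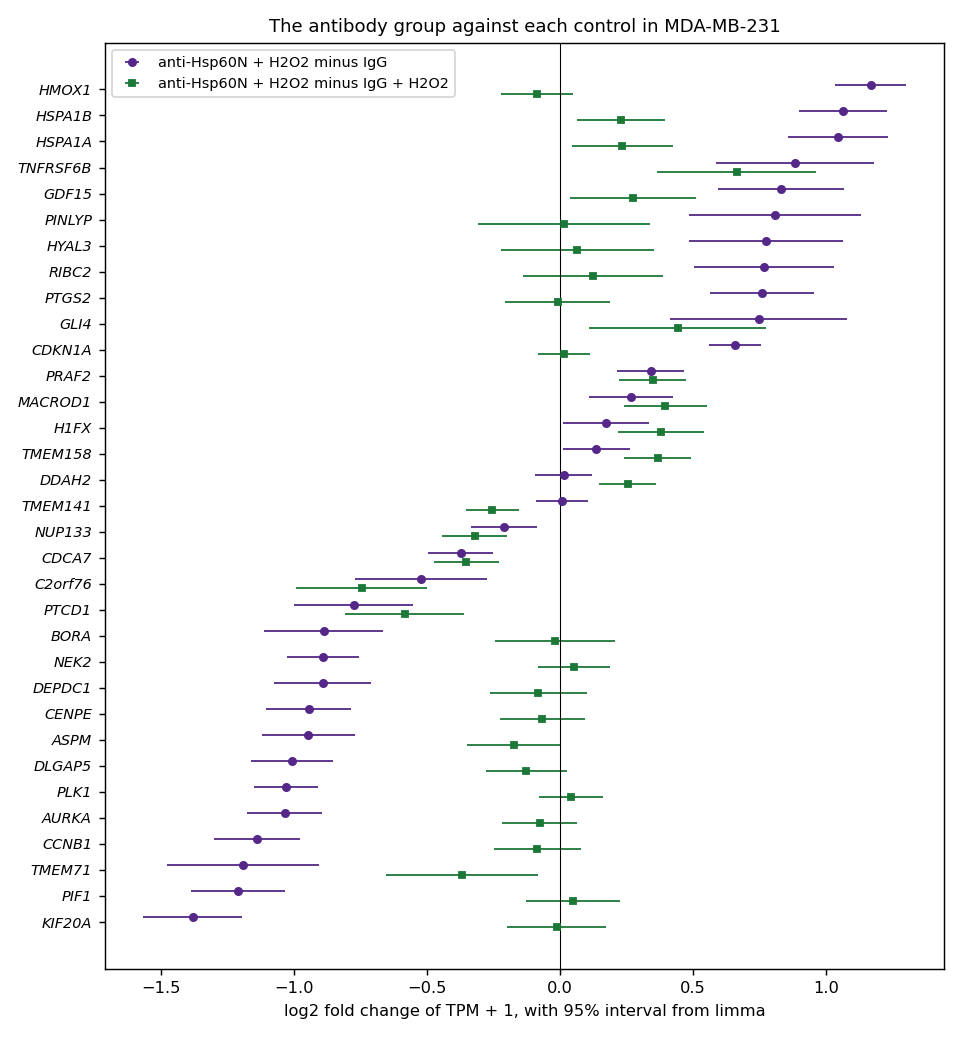
Log2 fold change of TPM + 1 with its 95% interval from limma (x axis) for 33 genes of MDA-MB-231 (y axis), for the antibody group minus IgG (purple circles) and minus IgG + H2O2 (green squares). The green intervals of the mitotic genes KIF20A, CCNB1, AURKA and PLK1 include 0, while those of HSPA1A, HSPA1B and GDF15 lie above 0 without passing the adjustment over all genes.

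The same comparison in HCT116, with libraries of its own, changed 4780 genes (34.4%), with 16.8% of all genes higher and 17.6% lower, against 473 in MDA-MB-231, and 2944 without its antibody replicate 2. The difference between the lines was itself tested, as the change in MDA-MB-231 minus that in HCT116, and 2959 genes (21.3%) passed, 1440 with a higher value in MDA-MB-231 (10.4%) and 1519 with a lower one (10.9%). That count was 1856 without MDA-MB-231 antibody replicate 2, and 1899 and 1879 without HCT116 antibody replicate 1 and 2. Mitotic genes fell in both lines: 28 of 30 mitotic entry and exit genes fell in HCT116, with a median of -0.46, and 11 of the 30 differed between the lines. KIF20A fell by 1.38 in MDA-MB-231 and by 0.82 in HCT116, a difference of -0.57 (limma adjusted p 0.00868). PLK1 fell by 1.03 and by 0.86, a difference that did not pass (-0.17, limma adjusted p 0.137).

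Heat shock genes differed between the lines. In HCT116, 19 of 20 fell and none rose, while 3 rose and 17 were not called in MDA-MB-231, and 17 of the 20 differed between the lines. Over all genes, 34.4% changed in HCT116 and 21.3% differed between the lines. HSPA1B was at 1277 and 1326 TPM with IgG and at 474.75 and 448.92 TPM with antibody and H2O2 in HCT116, so its level fell there while it rose in MDA-MB-231 (difference 2.56, limma adjusted p 2.88e-07). HSPA1A differed by 2.38 and HSPA8 by 0.98, with HSPA8 falling from 5155 and 5077 to 2792 and 2558 TPM in HCT116. Of the 32 DNA replication genes, 2 rose and 16 fell in HCT116, and 20 of 32 differed between the lines, all with a higher value in MDA-MB-231. FEN1 fell by 0.38 in HCT116 and rose by 0.33 in MDA-MB-231 (difference 0.71, limma adjusted p 7.09e-05).

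Fewer genes of the p53 and ATF4 lists changed in MDA-MB-231 than in HCT116, as was so over all genes (3.4% against 34.4%). Of 27 p53 targets, 25 rose in HCT116 against 2 in MDA-MB-231, and 24 differed between the lines. Of 23 ATF4 genes, 20 rose in HCT116 with a median of 1.04 and 18 differed. LAMB3, a laminin chain, was at 400.34 and 429.35 TPM with IgG and at 411.79 and 436.58 TPM with antibody and H2O2 in MDA-MB-231, and at 25.16 and 25.06 against 118.27 and 122.4 TPM in HCT116 (difference -2.18, limma adjusted p 2.2e-08). Its groups overlapped in MDA-MB-231 and were far apart in HCT116. TRIB3 differed by -1.79, DUSP5 by -1.67 and TNFRSF10B, a TRAIL receptor, by -1.55, each with limma adjusted p at most 7.87e-07. FAM171A2 differed by 1.37, from 11.28 and 11.75 to 4.92 and 5.49 TPM in HCT116 and from 1.37 and 1.46 to 2.21 and 1.97 TPM in MDA-MB-231, where its call was lost without any 1 of the 12 libraries (limma adjusted p 0.0549 to 0.173). HMOX1 rose in both lines, by 1.17 and 1.57, and PTGS2 by 0.76 and 0.74 (difference 0.02, limma adjusted p 0.915). PTGS2 was low in HCT116, at 0.45 and 0.6 TPM with IgG and 1.42 and 1.66 TPM with antibody and H2O2. The log2(TPM + 1) scale understates the change at such levels, so these near-equal values do not stand for equal ratios of TPM. The 2 lines differ in starting level for many of these genes, and the part of that in the differences was not tested.

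**Figure D5:**
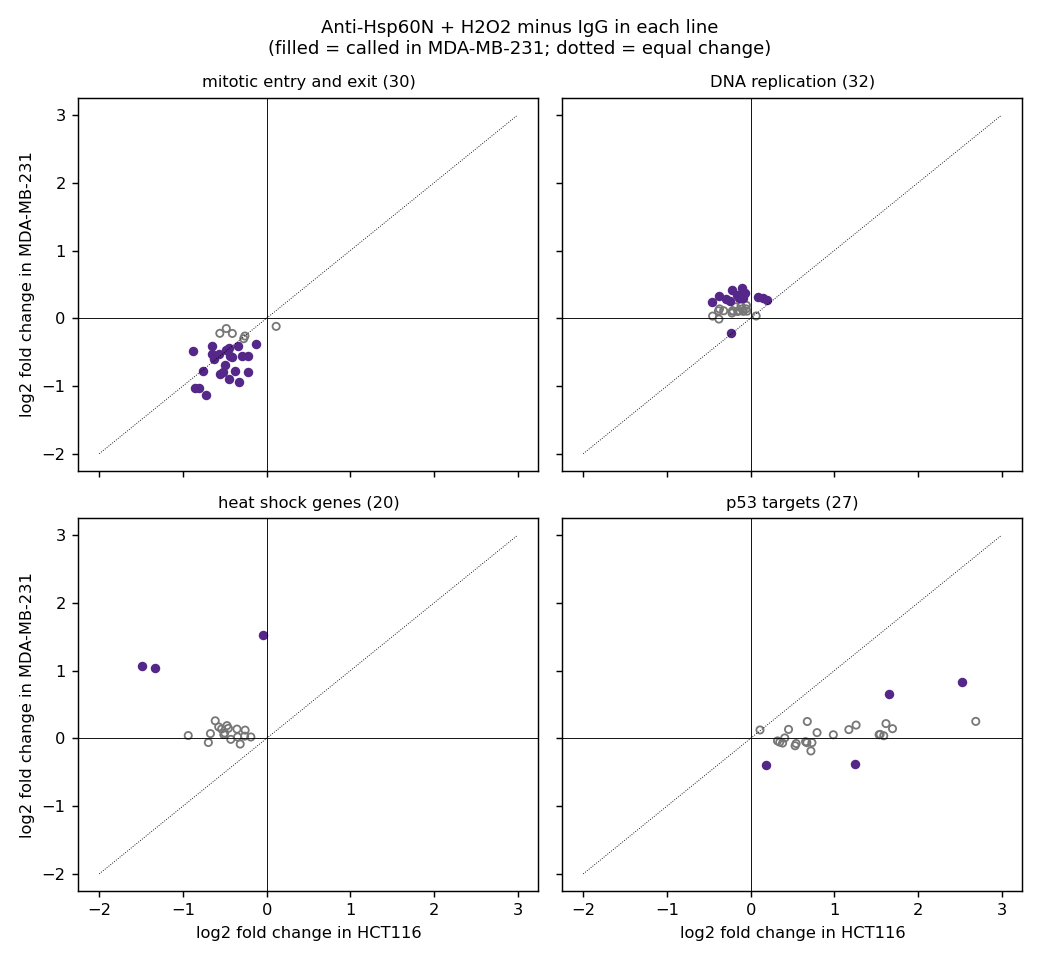
Log2 fold change of TPM + 1, antibody plus H2O2 minus IgG, in HCT116 (x axis) against MDA-MB-231 (y axis) for the kept members of 4 lists, each member a point, filled where called in MDA-MB-231, with a dotted line of equal change. Mitotic entry and exit genes are below 0 in both lines except 1 not called in MDA-MB-231, heat shock genes lie left of 0, and p53 targets lie right of 0 and mostly near 0 on the y axis.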

How the data were processed

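RNA-seq of MDA-MB-231 and HCT116 cells was deposited as 1 table of gene-level TPM, a share of transcripts scaled by length and by the library total, that the authors made, with 23686 genes and 12 libraries, rounded to 2 decimals. Per the submitters' processing notes, RSEM, STAR, bcl2fastq 2.20 and the build hg19 were used, and no role or order is named. Gene annotation and strand setting were not given in the sources used here. TPM carries no depth, so no counting error was derived. Columns were matched to libraries by the sample descriptions.

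Genes with at least 1 TPM in at least 2 of 12 libraries (13956) were fitted with limma 3.58.1 in R 4.3.3 on log2(TPM + 1), with a variance trend, 6 group means (6 residual degrees of freedom), two-sided tests and Benjamini-Hochberg adjustment over all fitted genes at 0.05. The 61 small RNA genes by name, 7 of them microRNA host genes, stayed in the fit and were left out of counts. The code of the fit was checked on simulated data with independent normal noise, of the same spread in both lines for each gene. That check cannot show how the fit does where the spread differs between lines. Members and the 33 gene lists were chosen with earlier results of these data known, and 6 list symbols were matched through older names in RefSeq. Lists are described by counts and medians, without a test.

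Genes named were the 12 highest and 12 lowest log2 fold changes among called genes with a mean of at least 5 TPM in 1 of the groups and no overlap, up to 3 called genes of smallest p per list, HSPD1, and the 5 of smallest p in each direction against IgG+H2O2 and between the lines. Further list members are named to show the roles within a list, and were chosen with their values known. Promoter sequences are from RefSeq (GRCh38.p14) and were matched by symbol, and no hg19 coordinates were used. Alternatives were another pseudocount (0.25, 4), other filters, median-of-ratios and quantile scaling, no variance trend, MDA-MB-231 alone, small RNA genes left out before the fit, a replicate block, and each library left out in turn. A gene that the naming rule gave for the difference between the lines is not reported here.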

Additional observations from a re-analysis of the deposited data

Results flagged for a closer look

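The change with antibody and H2O2 against IgG differed between MDA-MB-231 and HCT116 in 2959 genes by the test of the difference itself (limma, adjusted p 0.05). Each value here is the log2 fold change in MDA-MB-231 minus that in HCT116. Among the genes named for MDA-MB-231, the higher values were 3.27 for EEF1E1-MUTED, 2.56 for HSPA1B, 2.38 for HSPA1A, 1.37 for FAM171A2, 0.98 for HSPA8, 0.77 for TNFRSF6B, 0.71 for FEN1 and 0.59 for RIBC2. The lower values among stress and matrix genes were -2.18 for LAMB3, -1.79 for TRIB3, -1.69 for GDF15, -1.67 for DUSP5, -1.55 for TNFRSF10B, -0.999 for CDKN1A and -0.40 for HMOX1.

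Among genes that fell in MDA-MB-231, the values were -0.62 for ASPM, -0.57 for KIF20A, -0.54 for BORA, -0.53 for DEPDC1, -0.45 for CENPE, -0.44 for NEK2, -0.42 for CCNB1 and -0.41 for PIF1, each of which also fell in HCT116 by a smaller amount. TMEM71 had -1.19 and was listed at 0 in every IgG and antibody library of HCT116. With 2 libraries a group, no group was large enough for the check for single libraries far from the others.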

How the results depend on the processing

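Of 69 named genes called against IgG, 21 were called under all 22 alternatives, 4 under the 21 that kept them past the filter, 44 were lost under at least 1, and none reversed. With the spread estimated from MDA-MB-231 alone, 99 genes were called (36 higher, 63 lower), 84 for IgG+H2O2 against IgG and 0 between the antibody and IgG+H2O2 groups, and 2 NRF2 targets, 2 ATF4 genes, 7 kinesins and 3 replication genes were called. This fit has fewer libraries. Called between the H2O2 groups were 0 genes at a mean of at least 5 TPM, and called of the ATF4 genes were 5 without the variance trend. The causes were not tested.

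Leaving out 1 library at a time gave 144 to 549 genes against IgG (54 to 254 higher, 86 to 295 lower), 115 to 431 for IgG+H2O2, 1 to 3 between the H2O2 groups, 2944 to 4806 in HCT116 and 1856 to 2993 between the lines. The same gave 4 to 9 NRF2 targets, 3 to 8 ATF4 genes, 22 to 24 mitotic entry and exit genes, 8 to 12 kinesins and 4 to 13 replication genes. LAMB3, not called, ranged from -0.018 without IgG replicate 1 to 0.0826 without IgG replicate 2. With median-of-ratios scaling, IgG+H2O2 gave 154 higher and 277 lower genes, against 181 and 188.

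Deviations of same-numbered MDA-MB-231 libraries from their group means correlated across genes at 0.12, 0.07 and 0.09, so the numbers were not taken as pairs. A replicate block gave 373 genes against IgG (173 higher, 200 lower) and 1 between the H2O2 groups. Depth is unknown, and 2 libraries a group limit the precision.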
